A study of Mus musculus with 106 samples.

Results

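Cytosolic ribosomal protein genes were taken as the protein-coding mouse genes whose symbol is Rpl or Rps followed by a digit, with Rplp0, Rplp1, Rplp2 and Rpsa added. The 10 Rps6k kinase genes and 2 symbols ending in -ps and a number were left out. The rule gave 89 of 21887 protein-coding genes of the mm10 gene table: 46 canonical large subunit genes, 31 canonical small subunit genes and 12 related genes (Rpl3l, Rpl7l1, Rpl10l, Rpl22l1, Rpl32l, Rpl36al, Rpl37rt, Rpl39l, Rps19bp1, Rps23rg1, Rps27l and Rps27rt). Each gene body with 10 kb on either side was searched for peaks of Foxa2, FXR, LXR and PPAR in mouse liver. Each body was also measured for the percent of its length inside regions where ATAC-seq was higher with ligand than with vehicle (called gained regions here). The genes were chosen by symbol alone.

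The livers came from wild type (WT) mice and from mice lacking Foxa2. The PPAR labels spell out the mutant as Foxa2loxP/loxP;Alfp.Cre, where Alfp.Cre is a Cre transgene driven by albumin and alpha-fetoprotein control elements, active in the liver epithelium from before birth. For ATAC, Foxa2 and FXR the mice were 8 to 12 weeks old and received ligand or vehicle 4 hours before harvest. The ligands were GW4064 (an FXR agonist), GW3965 and T0901317 (T09, both LXR agonists). For LXR and PPAR the mice were C57BL/6, aged 3 months, and the LXR labels give one agonist only as GW. ATAC lists compare WT with GW3965, WT with T09, WT with GW4064 and Foxa2-KO with GW4064, each over its own vehicle group. Foxa2 was profiled in WT with GW3965, T09 and their vehicle (Veh), and with GW4064 and its vehicle (GW4064-Veh). FXR was profiled in both genotypes with GW4064 and its vehicle, LXR in both with GW, T09 and Veh, and PPAR in both with GW3965, T09, GW4064 and Veh. Each group or ATAC comparison is 1 list, with 1 to 3 samples per group behind it, and the labels of 3 Foxa2 groups put 3 replicates into 1 raw file. There is therefore no spread between replicates for any value below, and none of the differences between lists could be tested.

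The ribosome is the particle that translates mRNA. Its small subunit reads the message and its large subunit joins the amino acids, and each ribosomal protein gene supplies 1 building block that the cell needs in step with all the others. Hepatocytes make plasma proteins in bulk, and ribosomal protein genes are among the most highly transcribed genes of the liver. Their promoters are short, GC-rich and mostly without a TATA box, and their mRNAs begin with a pyrimidine tract through which mTOR signalling sets their translation. Foxa2 is a forkhead factor that opens chromatin, and FXR, LXR and PPAR are nuclear receptors of bile acid, sterol and fatty acid metabolism.

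The promoters below are the ones that a Foxa2 peak or a gained region touched in at least 2 lists and whose start site is the outer end of the gene. Each is the 250 bases before the start site (RefSeq, GRCm38.p6, the assembly of mm10), 5′ to 3′ on the coding strand, which is the plus strand for all 3 genes. Capitals mark a match to 1 of the searched motifs.
Rplp0, chr5:115559217-115559466: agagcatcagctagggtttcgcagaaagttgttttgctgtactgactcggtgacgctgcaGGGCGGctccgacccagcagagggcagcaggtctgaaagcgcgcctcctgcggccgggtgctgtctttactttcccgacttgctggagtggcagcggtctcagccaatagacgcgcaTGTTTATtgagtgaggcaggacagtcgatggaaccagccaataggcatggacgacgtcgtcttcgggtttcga
Rpl10, chrX:74270566-74270815: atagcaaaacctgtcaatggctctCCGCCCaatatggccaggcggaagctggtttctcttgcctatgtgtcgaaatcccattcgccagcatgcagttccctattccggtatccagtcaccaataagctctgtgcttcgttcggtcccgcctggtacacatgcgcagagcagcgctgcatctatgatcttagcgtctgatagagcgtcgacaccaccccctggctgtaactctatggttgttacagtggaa
Rpl31, chr1:39367601-39367850: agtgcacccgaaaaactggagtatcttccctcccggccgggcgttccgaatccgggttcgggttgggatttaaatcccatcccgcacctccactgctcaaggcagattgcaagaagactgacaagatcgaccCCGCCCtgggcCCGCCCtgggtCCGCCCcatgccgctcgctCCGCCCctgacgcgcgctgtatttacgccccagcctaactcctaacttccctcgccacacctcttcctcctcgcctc
In Rplp0 the capitals mark a GC box and TGTTTAT, a relative of the forkhead core, which begins 73 bases before the start site and lies inside the Foxa2 peak of 4 lists. In Rpl10 and Rpl31 they mark GC boxes, read on the opposite strand, with 1 in Rpl10 and 4 in Rpl31.

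Promoters were found for 69 of the 89 genes, and 300 bases of each (250 before to 50 after the start site) were searched on both strands, beside the promoters of 17492 genes. The ETS and GABP motif CCGGAAG stood in 25 of the 69 (36.2%, against 11.9% of all promoters) and in 24 of 69 mitochondrial ribosomal protein promoters (34.8%). AAGATGGC, the core bound by YY1, stood in 6 (8.70%, against 3.21%), and the GC box GGGCGG in 40 (58.0%, against 46.3%). Of the 69 mitochondrial ribosomal protein promoters, 12 (17.4%) held the YY1 core, a higher share, and 34 (49.3%) the GC box. Matches of nuclear receptors and forkhead factors were no more frequent than over all promoters. AGGTCA, the site that a nuclear receptor monomer binds, stood in 8 (11.6%, against 14.5%). TGTTTAC, the forkhead core, stood in 1, that of Rpl41 (1.45%, against 2.93%). The variant TGTTTAT, added after the Rplp0 promoter had been read, stood in Rplp0 and Rpl24 (2.90%, against 4.03%). The FXR inverted repeat (2 AGGTCA sites facing each other across 1 base) and the LXR direct repeat (2 AGGTCA sites in a row across 4 bases) stood in none of the 69. Over all promoters the first was found in 1 and the second in 0. AGGTCA lies within both repeats, and the other motifs hold none of one another.

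The 27 lists held 110 to 82561 entries, and the number of reads behind them is unknown. Hepatocyte markers (Alb, Apoa1, Apob, Ttr, Fga and Hnf4a) had a Foxa2 peak within 10 kb in 4 to 6 of 6 cases across the Foxa2 lists, and Kupffer cell markers in 0 of 5 in each. Stellate cell markers had one in 0 or 1 of 4 and cholangiocyte markers in 0 or 1 of 4. Sinusoidal endothelial markers had one in 2 or 3 of 4. Ribosomal protein genes are short, with a median length of 3183 bp (374 to 16779 bp) against 17169 bp over all genes, and 87 of the 89 are at most 10 kb long. Both kinds of count differ with gene length, so the percent of the 7926 genes of at most 10 kb (short genes) is given beside that of all genes where it bears on the reading, and the plot of ChIP lists shows it for each.

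Gained regions covered ribosomal protein genes more often than other genes with T09 and with GW4064, and about as often as other genes with GW3965. With T09 in WT, 11 of the 89 bodies (12.4%) lay at least 25% inside gained regions, against 1.54% of all genes and 2.83% of genes of at most 10 kb. With GW4064 in WT the count was 8 (8.99%, against 1.94% of all genes and 3.89% of short genes). In Foxa2-KO with GW4064 it was 11 (12.4%, against 1.66% and 3.65%). With GW3965 in WT it was 3 (3.37%, against 2.26% and 4.45%), which lies between the 2 backgrounds. The median coverage was 0% in every list, for these genes, for all genes and for short genes alike. The mean coverage of the 89 bodies was 2.80% with GW3965, 8.64% with T09, 5.70% with GW4064 in WT and 7.07% with GW4064 in Foxa2-KO. Over short genes it was 3.44%, 2.41%, 2.97% and 2.97%.

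These calls rest on wide regions of small fold. In 31 of the 33 cases of a gene covered in a list, the widest region on the gene was at least 1 kb wide. Of the 25 cases where the list gives a fold (the ratio of ligand to vehicle, as the authors deposited it), that region had a fold under 1.5 in 20. With regions of fold 1.5 or more alone, the count with T09 fell from 11 to 2 (2.25%, Rps7 and Rps10), against 0.324% of all genes and 0.580% of short genes. In Foxa2-KO with GW4064 it fell from 11 to 2 (Rpl28 and Rps19bp1, against 0.288% and 0.744%), and with GW3965 from 3 to 1 (1.12%, Rpl32l, against 0.283% and 0.467%). Wide regions had small folds throughout these lists. Regions of at least 1 kb made up 4.05% of the T09 list, with a median fold of 1.41 against 3.98 over the whole list. On the ribosomal protein genes they made up 32.1% of the regions, with a median fold of 1.35 (1.17 to 1.71). The 2 shares are not like for like, because a wide region is more likely to touch any gene body. The share among regions that touch other genes is not given here. What this width and fold have to do with the counts was not tested.

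**Figure D1:**
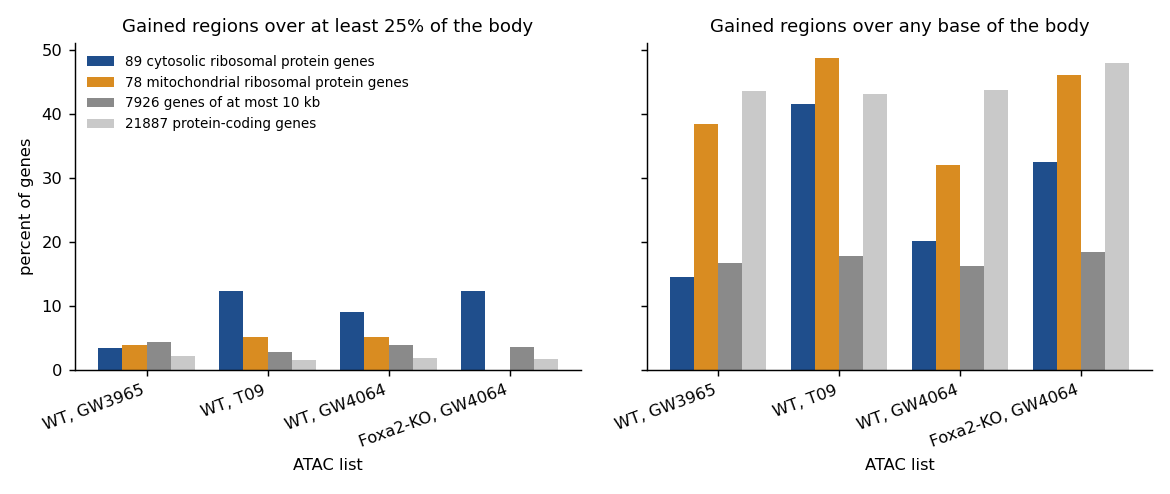
Percent of genes (y axis) with at least 25% of the body (left) or any base of the body (right) inside gained ATAC regions, for the 4 ATAC lists (x axis) and 4 groups of genes; each bar is 1 list, so there is no error bar. With T09 and in Foxa2-KO with GW4064, 12.4% of the 89 genes reach 25%, against 2.83% and 3.65% of short genes.

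Read by any base of the body, 13 genes were touched with GW3965 (14.6%, against 43.6% of all genes and 16.7% of short genes) and 18 with GW4064 in WT (20.2%, against 43.8% and 16.3%). With T09, 37 were touched (41.6%, against 43.2% and 17.7%), and in Foxa2-KO with GW4064, 29 (32.6%, against 48% and 18.4%). Between the 2 LXR agonists the count of ribosomal protein genes touched was thus 13 against 37, while the percent of short genes touched was nearly the same. The genes touched but under 25% numbered 26 with T09 (0.133% to 21.7% of the body), 10 with GW3965 (up to 20.5%), 10 with GW4064 in WT (up to 23.2%) and 18 in Foxa2-KO (up to 18.9%). Nearest above the limit were Rps10 (26.7%) and Rpl3 (29.5%) with T09, Rpl12 (26.2%) and Rps7 (28.4%) with GW4064 in WT, Rpl11 (28.5%) and Rpl32 (32.8%) in Foxa2-KO, and Rpl32l (48.8%) and Rpl27a (56.1%) with GW3965. Nearest below it were Rpl35 (21.7%) and Rps4x (20.2%) with T09, Rps13 (23.2%) and Rps15 (20.5%) with GW4064 in WT, Rpl37a (18.9%) in Foxa2-KO, and Rpl7 (20.5%) and Rpl31 (14.8%) with GW3965.

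In all, 24 genes passed 25% in at least 1 list (27%, against 5.79% of all genes and 11.8% of short genes): 16 in 1 list, 7 in 2 and 1 in 3. The 8 genes in more than 1 list were 8.99% of the 89, against 1.43% of all genes and 2.75% of short genes. Rpl38, a large subunit protein known in the mouse for its part in translating Hox mRNAs, is the one in 3 lists. Its body was covered to 85.9% with T09, 75.1% with GW4064 in WT, 81.7% with GW4064 in Foxa2-KO and 0% with GW3965. One region made up each value, at chr11:114667723-114671694 (T09, fold 1.24), chr11:114667485-114671209 (GW4064, WT) and chr11:114667753-114671506 (Foxa2-KO, fold 1.15). The 3 regions nearly coincide and run from the 5′ end of the gene to near its far end.

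Small subunit genes were covered in different lists. Rps9, a protein near the mRNA entry of the small subunit, was covered to 30.8% with T09 and 49.4% with GW4064 in WT, and to 0% in the other 2 lists. Rps7 was covered to 33.7% with T09, 28.4% with GW4064 in WT and 0% in the other 2. Both genes were thus covered with T09 and with GW4064 in WT and stood at 0% in Foxa2-KO. On Rps9 the T09 region (chr7:3705990-3708370) and the GW4064 region (chr7:3705443-3707698) overlapped. On Rps7 the T09 region (chr12:28631961-28633679) and the GW4064 region (chr12:28634505-28637464) did not.

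Other small subunit genes differed from this pair. Rps14, a protein of the decoding platform, was covered to 73.8% with T09 and 45.0% in Foxa2-KO, and to 0% with GW3965 and with GW4064 in WT. Rps18 was covered to 40.5% with T09 and to 0% in the other 3 lists. Rps10 was covered to 26.7% with T09, 6.5% with GW4064 in WT, 4.0% in Foxa2-KO and 0% with GW3965. No canonical small subunit gene reached 25% with GW3965, against 6 of 31 with T09, 4 with GW4064 in WT and 2 in Foxa2-KO. In the same order, 2.26%, 1.54%, 1.94% and 1.66% of all genes passed. Of short genes 4.45%, 2.83%, 3.89% and 3.65% did. With so few genes per subunit, the counts are not read as a difference between subunits.

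Large subunit genes reached 25% in 2 of 46 cases with GW3965, 5 with T09, 4 with GW4064 in WT and 8 in Foxa2-KO. The shares of all genes and of short genes are those given above for the small subunit. Rpl35a, which is mutated in some cases of Diamond-Blackfan anaemia, was the one gene that passed 25% with both LXR agonists (1.12% of the 89, against 0.352% of all genes and 0.53% of short genes). Its body was covered to 64.3% with GW3965 (region chr16:33057605-33060006, fold 1.46) and to 68.7% with T09 (chr16:33057517-33060083, fold 1.26), and to 0% in both GW4064 lists. Rpl27a was covered to 56.1% with GW3965, 8.8% in Foxa2-KO and 0% in the other lists. Rpl31, at the exit of the peptide tunnel, was covered to 68.5% with T09, 14.8% with GW3965, 6.8% with GW4064 in WT and 0% in Foxa2-KO. Its regions at chr1:39366805-39369815 (T09) and chr1:39366768-39368450 (GW3965) both take in the promoter printed above. Rpl3, a protein close to the peptidyl transferase centre, was covered to 29.5% with T09, 13.8% with GW4064 in WT and 33.0% in Foxa2-KO, and to 0% with GW3965.

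Several large subunit genes passed the limit in the Foxa2-KO list alone. Rpl35, which docks factors at the tunnel exit, was covered to 89% in Foxa2-KO by a region at chr2:39001970-39006907 (4938 bp, fold 1.19), to 21.7% with T09 and to 0% with GW3965 and with GW4064 in WT. Rpl7a was covered to 48.8%, Rpl28 to 52.5%, Rpl36 to 43.6% and Rpl32 to 32.8% there, all with 0% in the WT list of the same ligand. Rpl11, which with Rpl5 binds Mdm2 when ribosome assembly fails, was covered to 28.5% in Foxa2-KO, 8.7% with T09 and 0% in the other 2. In the other direction, Rpl13a (40.9%), Rpl12 (26.2%) and Rpl17 (29.2%) passed with GW4064 in WT and stood at 0% in Foxa2-KO. Of the genes that passed with GW4064, 2 did so in both genotypes, which is 25% of the 8 in WT and 18.2% of the 11 in Foxa2-KO. Over all genes 79 passed in both (0.361%), 18.6% of those in WT and 21.7% of those in Foxa2-KO, and over short genes 0.719% did (2.25% of the 89). The 2 genotypes were called against separate vehicles, so the lists can differ through either arm. Of the 12 related genes, Rpl32l (48.8% with GW3965, fold 1.80) and Rps19bp1, which encodes a partner of Rps19 (35.5% in Foxa2-KO), passed in 1 list each.

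**Figure D2:**
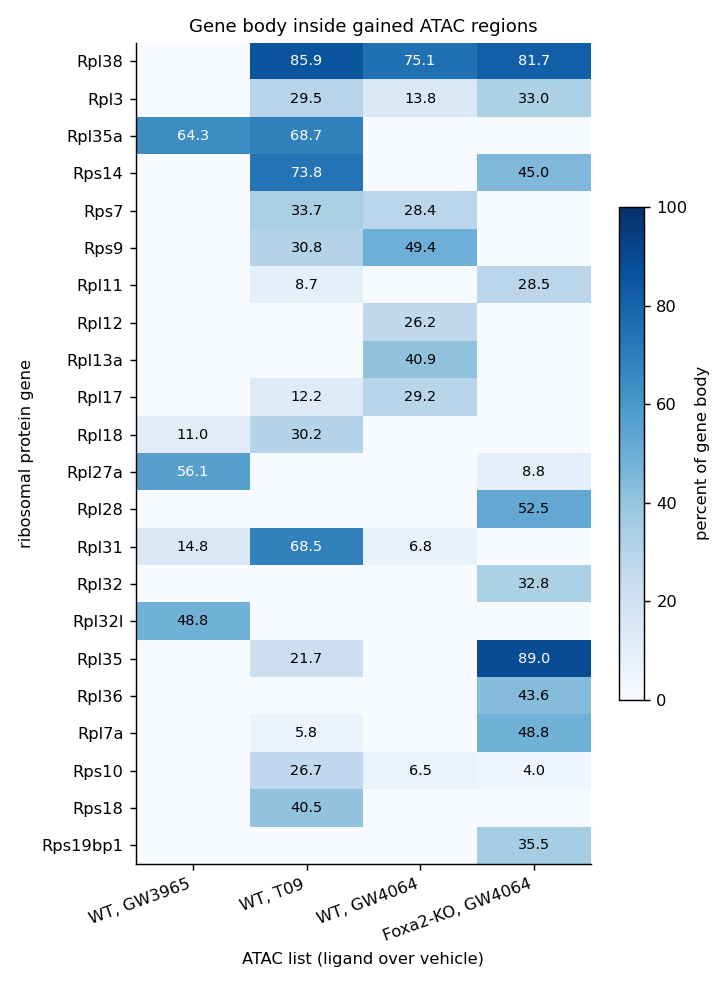
Percent of the gene body inside gained regions (colour and printed value; empty cells are 0) for 22 of the 24 genes at or above 25% in at least 1 of the 4 ATAC lists (columns). Rpl38 is high in 3 columns, and the GW3965 column holds 3 genes above 25%.

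Some of these regions reached well beyond the ribosomal protein gene. With T09 a region of 13440 bp at chr7:45702446-45715885, entry 53 of 60868, overlapped only the outer end of Rpl18 (chr7:45715467-45720835). It also touches Dbp (a clock output factor), Sphk2 and Car11. The 30.2% coverage of Rpl18 with T09 also came from regions inside the body, at chr7:45717683-45718833 (1151 bp, entry 790, fold 1.48) and chr7:45719048-45719096. A region at nearly the same place, chr7:45702364-45716054, was entry 305 of 62838 with GW3965, where Rpl18 was covered to 11%. On Rps18 (chr17:33951998-33955665) the T09 region at chr17:33949771-33952300 touched the neighbour B3galt4. A further T09 region, at chr17:33952589-33953770, lay inside the Rps18 body. The GW4064 region on Rpl12 in WT touched Lrsam1. None of the genes passed 25% on the first 500 regions of a list.

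Around the start sites, gained regions with T09 lay more often downstream of the start site than on it, which was not so in every list. With T09, the start site itself lay in a region for 4 of 69 genes (5.80%, against 2.7% of 17492 genes and 2.81% of short genes). The far end of the gene did for 6 (8.70%, against 1.94% and 2.18%). Between 2 and 4.5 kb downstream of the start site, a position was inside a T09 region for 16.2% of the genes on average, against 1.75% of all genes, 2.32% of short genes and 3.46% of mitochondrial ribosomal protein genes. The highest value was 21.7% (15 of 69) at 4300 bp. With regions of fold 1.5 or more alone, the average over 2 to 4.5 kb was 6.08%, against 0.935% of all genes and 1.10% of short genes.

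The same reading in the other lists gave smaller values. Over 2 to 4.5 kb it was 4.35% with GW3965 (2.38% of short genes), 7.08% with GW4064 in WT (2.14%) and 6.58% in Foxa2-KO (2.18%). At the start site the counts were 3 of 69 with GW3965 (4.35%, against 9.9% of all genes and 7.0% of short genes), 5 with GW4064 in WT (7.25%, against 6.42% and 5.18%) and 4 in Foxa2-KO (5.80%, against 5.08% and 4.15%). At the far end they were 2 with GW3965 (2.90%, against 1.9% and 2.23%), 2 with GW4064 in WT (2.90%, against 1.85% and 2.14%) and 5 in Foxa2-KO (7.25%, against 1.36% and 1.92%). In the GW3965 and GW4064 lists of WT more genes thus had the start site in a region than the far end, and with T09 and in Foxa2-KO fewer did. All of these counts lie between 2 and 6 of 69 genes, and the contrast was not tested.

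**Figure D3:**
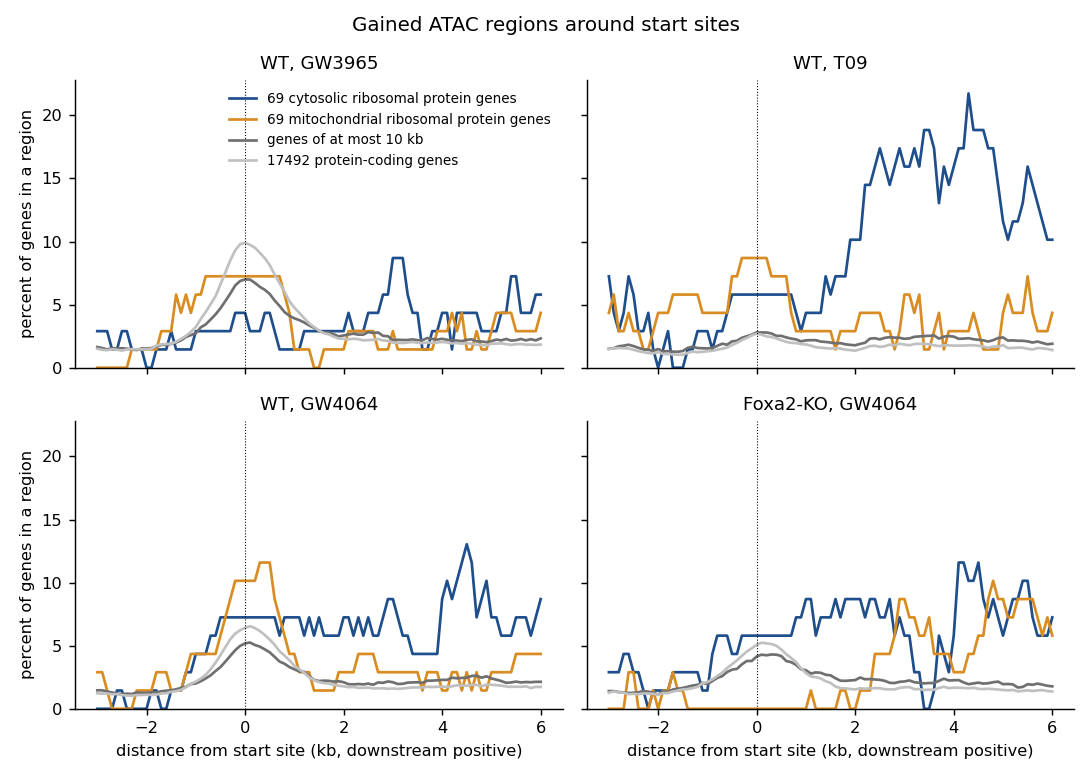
Percent of genes whose base at a given distance from the start site (x axis, kb) lies in a gained ATAC region (y axis), in 4 lists, for 69 cytosolic and 69 mitochondrial ribosomal protein genes, short genes and all genes with a start site. With T09 the cytosolic line reaches 21.7% downstream, while all genes stay near 2%.

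Ribosomal protein genes have many processed pseudogenes, whose reads can be hard to place. The gene table holds 324 pseudogenes with such symbols among 10622, and how reads with several matches were treated is not given in the sources used here. Gained regions touched 2 of the 324 with GW3965, 5 with T09, 7 with GW4064 in WT and 7 in Foxa2-KO (0.617% to 2.16%). Pseudogenes in general were touched in 4.38% to 6.37% of cases. The 2 groups were not matched for length, and how reads were placed was not tested.

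Foxa2 peaks lay near 49 of the 89 genes in at least 1 of the 5 lists (55.1%), against 55.9% of all genes and 35.4% of genes of at most 10 kb. The counts were 30 with GW3965 (33.7%, against 36.9% of all genes), 24 with T09 (27%, against 39.2%) and 24 with GW4064 (27%, against 38.8%). With vehicle they were 2 in the LXR agonist experiment (2.25%, against 12.1%) and 8 in the GW4064 experiment (8.99%, against 17.8%). In each list the genes thus stood below all genes, and in 4 of the 5 they stood above short genes (20.9%, 20.5%, 21.5% and 7.53%). With Veh they stood below the short genes too (5.14%). The ligand lists are several times longer than the vehicle lists (21245, 25318 and 22666 entries against 4348 and 7306). Among the 3 ligand lists the shortest, that with GW3965, gave the highest count.

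**Figure D4:**
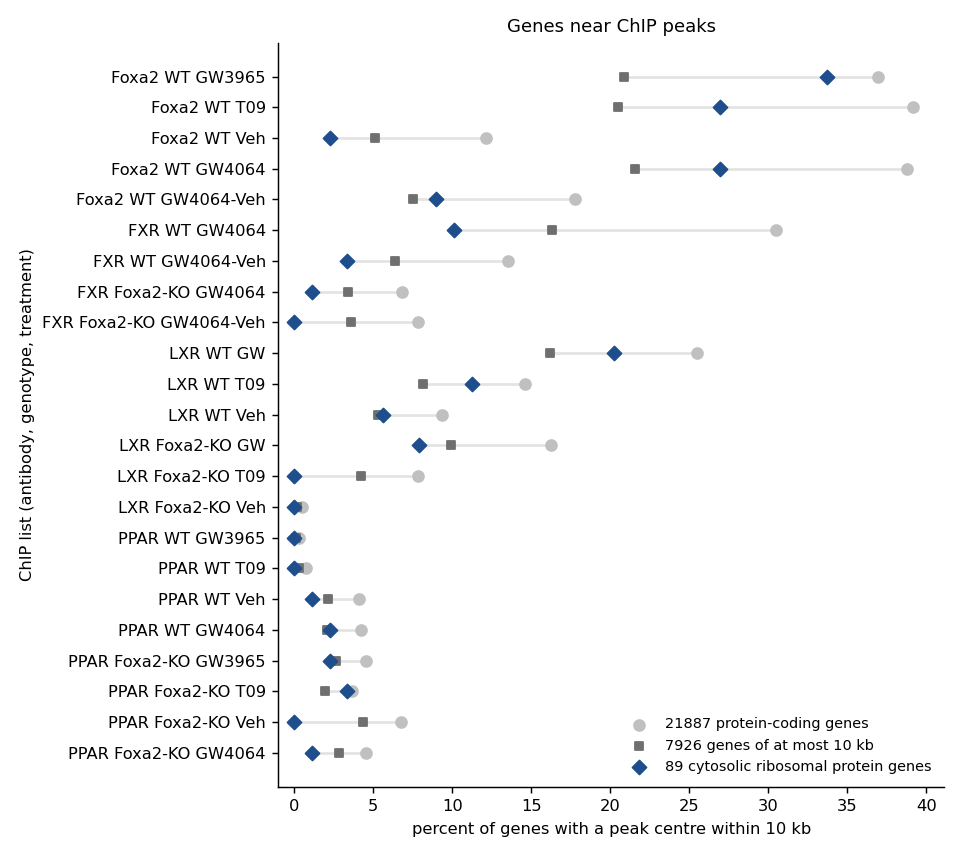
Percent of genes that had a peak centre no more than 10 kb away (x axis) in each of the 23 ChIP lists (y axis), for 89 ribosomal protein genes, 7926 genes of at most 10 kb and 21887 protein-coding genes. The ribosomal protein genes lie left of all genes in every list.

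Rplp0, the scaffold of the acidic stalk on which elongation factors dock, carried a Foxa2 peak on its promoter in 4 of 5 lists. It lay at chr5:115559264-115559527 with Veh (entry 2015 of 4348), chr5:115559254-115559517 with GW3965 (entry 4171), chr5:115559241-115559483 with T09 (entry 5593) and chr5:115559264-115559498 with GW4064 (entry 3870). The centres lay 72 to 105 bp before the start site, over the sequence printed above. The vehicle list of the GW4064 experiment held no peak there. A peak touched the 300-base promoter in 4 of 69 genes with GW3965 (Rpl10, Rpl22l1, Rplp0 and Rps6, against 7.38% of all genes), 2 with T09 (Rplp0 and Rps26, against 3.41%) and 2 with GW4064 (Rplp0 and Rpl10, against 3.1%). It was 1 with Veh (Rplp0, against 1.12%) and 0 with GW4064-Veh (against 1.1%). These shares, from 0% to 5.80%, are near those of promoters in general.

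Rpl10, a late-joining protein near the peptidyl transferase centre, had its promoter peak at chrX:74270672-74270877 with GW3965 (entry 20964 of 21245) and at chrX:74270672-74270840 with GW4064 (entry 17956 of 22666). The Rps6 peak, at the gene for the S6 kinase substrate, lay at chr4:86857291-86857471 with GW3965 (entry 15839), 14 bp from the start site. The FXR, LXR and PPAR lists touched none of the 69 promoters, and no single one of these lists touched more than 1.02% of all promoters.

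Rps16 had a Foxa2 peak 820 to 842 bp beyond its far end in 4 of 5 lists, and it was entry 2854 of 25318 with T09 (chr7:28353352-28353690), 4114 with GW3965, 3575 with GW4064 and 2579 of 4348 with Veh. A further peak, 8281 to 8316 bp upstream, was listed with each of the 3 ligands and with neither vehicle. Rpl37 and Rps25 had peaks in the same 3 ligand lists and in GW4064-Veh, but inside other genes: 8777 to 8816 bp upstream of Rpl37 in Card6, and 2545 to 2578 bp upstream of Rps25 in Trappc4. Rps10, Rpl23a, Rpl3, Rps13, Rpl36 and Rpl27a had peaks with the 3 ligands and no vehicle. At Rpl27a no peak position recurred between the lists. For Rpl36 each of the 3 lists had one in the body (chr17:56612633-56612860 with GW3965), and GW3965 a further one 965 bp outside the gene in Lonp1. The peaks lay, for Rps13 2267 to 2323 bp upstream and, for Rpl23a, in Tlcd1.

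Of the 102 Foxa2 peaks near the genes, 10 had their centre in a ribosomal protein gene body, 26 lay within 1 kb outside one, and 42 (41.2%) lay in another gene. In 3 cases a peak was counted at a pair of neighbouring members. None was among the first 500 entries of its list, and the median place was 60.5% of the way down. The Foxa2 lists give no q-value or fold, so this place is only the order of entries and is not read as strength. The same values for peaks near other genes are not given here.

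**Figure D5:**
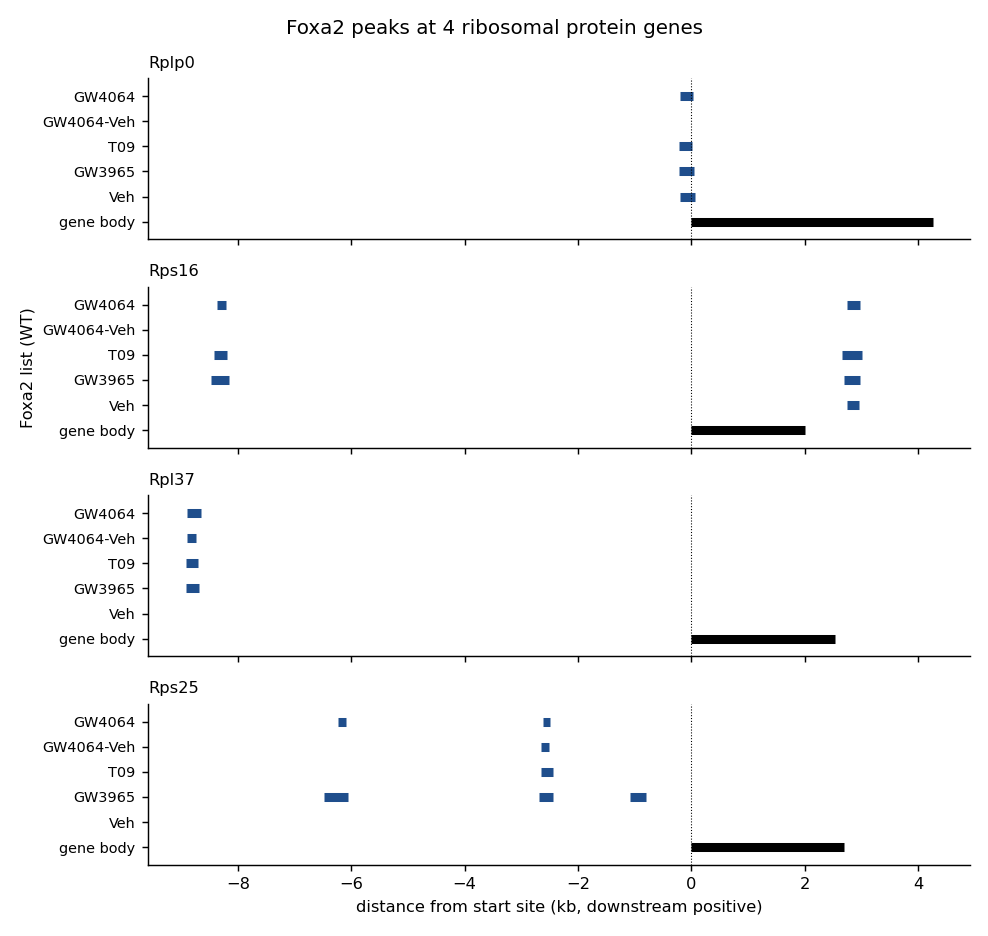
Foxa2 peaks (blue, to scale) around the start sites of 4 ribosomal protein genes in the 5 WT Foxa2 lists (rows), with the gene body in black; the x axis is the distance from the start site in kb. The Rplp0 peaks sit at the start site in 4 rows, while those of Rpl37 and Rps25 lie upstream in other genes.

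FXR peaks near ribosomal protein genes were few. In WT they were found near 11 genes in either list (12.4%, against 35.9% of all genes and 20.3% of short genes), of which 9 with GW4064 (10.1%, against 30.5% of all genes) and 3 with its vehicle (3.37%, against 13.5%). In Foxa2-KO the count was 1 over both lists (1.12%, against 13% of all genes and 6.61% of short genes), with 1 with GW4064 (against 6.8%) and 0 with vehicle (against 7.84%). Rpl37rt, one of the related genes, was near an FXR peak in both WT lists, at chr5:115100679-115100833 with GW4064 (entry 393 of 22705) and chr5:115100694-115100778 with vehicle (entry 5823 of 7883), 2166 and 2186 bp from the gene. Rpl4 held one in its body with GW4064 (chr9:64176651-64176701, 51 bp) and Rps9 one with vehicle (chr7:3705202-3705604). The others named by rank (Rpl9, Rpl32l, Rps27, Rps19, Rps14, Rps18 and Rps24) lay 885 to 8386 bp from the gene in 1 WT list each. The Foxa2-KO peak was 10 bp wide, 5210 bp from Rps23rg1.

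LXR peaks were found near 25 genes over the 3 WT lists (28.1%, against 36.3% of all genes and 24.6% of short genes). The counts were 18 with GW (20.2%, against 25.5% of all genes), 10 with T09 (11.2%, against 14.6%) and 5 with Veh (5.62%, against 9.38%). In Foxa2-KO 7 genes had one (7.87%, against 21.5% of all genes and 13.2% of short genes). All 7 came from the GW list (against 16.3%), and T09 and Veh gave 0 and 0 (against 7.85% and 0.489%). The WT shares lay between those of all genes and of short genes (16.2%, 8.18% and 5.31%), and the Foxa2-KO shares below those of short genes (9.92%, 4.24% and 0.202%).

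The LXR peaks near these genes were narrow, as were those of their lists as a whole. Their median width was 37.5 bp, and 17 of 46 were at most 20 bp wide. Over whole lists the median width was 39 bp (GW), 38 bp (T09) and 34 bp (Veh) in WT, and 46 bp with GW in Foxa2-KO. The share of peaks of at most 20 bp over whole lists is not given here. No position recurred at Rps9 or Rps7, which were in 4 and 3 LXR lists. At Rps9 peaks lay at chr7:3700237-3700266 with GW (q 0.0375), chr7:3701935-3702079 with T09 (q 0.0262) and chr7:3705640-3705746 with Veh (q 0.0477). In Foxa2-KO with GW they lay at chr7:3702651-3702720 and chr7:3712894-3713043. Rps7 had peaks in all 3 WT lists. Rps20, Rps23rg1, Rpl10l, Rps27a (a ubiquitin fusion), Rpl24 and Rps12 had peaks in 2 lists each. Of the 46 peaks, 3 were among the first 500 entries: 1 near Rps27rt in Osbpl10 (entry 75 with GW), 1 near Rpl19 in Stac2 (entry 490 with GW) and 1 at chr15:80087690-80087808, 4343 bp from Rpl3 (entry 110 with T09).

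PPAR peaks were found near 3 genes over the 4 WT lists (3.37%, against 8% of all genes and 4.11% of short genes) and near 5 over the 4 Foxa2-KO lists (5.62%, against 14.1% and 9.27%). In WT the counts were 0 with GW3965 (against 0.274% of all genes), 0 with T09 (0.722%), 1 with Veh (4.12%) and 2 with GW4064 (4.23%). In Foxa2-KO they were 2 with GW3965 (4.56%), 3 with T09 (3.64%), 0 with Veh (6.73%) and 1 with GW4064 (4.54%). Rps9 was the one gene with PPAR peaks in more than 1 list. These lay at chr7:3707925-3708156 with GW4064 in WT (entry 110 of 1979, q 0.0110), chr7:3706107-3706154 with T09 in Foxa2-KO, and chr7:3698638-3698787 and chr7:3700230-3700343 with GW4064 in Foxa2-KO. Rps18, Rpl31, Rps4x, Rpl36al and Rps23rg1 had 1 list each.

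Over the 23 ChIP lists, 67 of the 89 genes had a peak of some factor within 10 kb (75.3%, with 80.0% of all genes and 65.9% of short genes). Rps9 led with 9 lists (1 Foxa2, 1 FXR, 4 LXR and 3 PPAR lists), and Rplp0 and Rps25 had 5 each. The other 22 genes had none, among them Rpl5, Rpl32, Rpl41, Rplp1, Rplp2, Rps2, Rps3 and Rps23. Gained regions touched 59 of the 89 bodies in at least 1 ATAC list (66.3%, against 71.2% of all genes and 43.8% of short genes). Rpl27, Rpl34, Rplp1 and Rps23 had neither a peak nor a gained region on the body (4.49%, against 11.8% and 24.2%).

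Other genes of the translation machinery were read in the same way. Among 78 mitochondrial ribosomal protein genes, whose products build the separate ribosome of mitochondria, 3 reached 25% coverage with GW3965, 4 with T09, 4 with GW4064 in WT and 0 in Foxa2-KO. These were 3.85%, 5.13%, 5.13% and 0%, against 2.26%, 1.54%, 1.94% and 1.66% of all genes and 4.45%, 2.83%, 3.89% and 3.65% of short genes. Mrps34 was covered to 100% with T09 and with GW4064 in WT, and Mrpl43 to 92.0% with GW3965 and 100% with GW4064 in WT. In Foxa2-KO with GW4064, 11 of 89 cytosolic genes (12.4%) and 0 of 78 mitochondrial ones passed, and this difference was not tested. Foxa2 peaks lay near 48 of the 78 in at least 1 list (61.5%, against 55.9% of all genes and 35.4% of short genes).

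Translation factors passed 25% in 3 of 37 cases with T09 and 3 in Foxa2-KO, and in 0 with GW3965 and with GW4064 in WT. Over all genes 1.54% passed with T09 and 1.66% in Foxa2-KO, and over short genes 2.83% and 3.65%. Eef1b2, the exchange factor of elongation factor 1, was covered to 59.8% with T09, and Tpt1, which like ribosomal protein mRNAs begins with a pyrimidine tract, to 51.2%. Eif3g, a subunit of initiation factor 3, was covered to 28.9% with T09 and 95.6% in Foxa2-KO, Eif3f to 72.4% and Eef1a1 to 32.2% in Foxa2-KO. As for the ribosomal protein genes, the highest counts were with T09 and in Foxa2-KO. Of the 3 ribosomal proteins outside the symbol rule, Rack1 (a scaffold on the small subunit) was covered to 64.0% in Foxa2-KO, and Fau passed in none.

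Ribosome biogenesis genes passed in 1 of 35 cases with GW3965 (Nop10, 75.3%), 0 with T09, 1 with GW4064 in WT (Ubtf, 28.3%) and 2 in Foxa2-KO (Ubtf, 28.4%, and Eif6, 26.1%). Of 17 genes that control ribosomal protein synthesis, Myc passed with GW3965 (60.7%) and none in the other lists. Hepatocyte identity genes, in contrast, had their highest count with GW3965. They passed in 10 of 24 cases with GW3965 (among them Apoa1, 100%, and Alb, 86.5%), 2 with T09, 5 with GW4064 in WT and 2 in Foxa2-KO. Over all genes the share that passed was 2.26% with GW3965, 1.54% with T09, 1.94% with GW4064 in WT and 1.66% in Foxa2-KO.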

How the data were processed

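Peak lists of ATAC-seq, Foxa2, FXR, LXR and PPAR ChIP-seq from mouse liver were used, as the authors deposited them (27 lists from 61 of 106 samples; the 37 RNA-seq samples and 8 ATAC samples of Foxa2-KO with LXR agonists and vehicle were not used here). Reads were aligned with BWA to mm10 per the submitters' processing notes, whose version is not given in the sources used here. PeakSeq was the peak caller per the labels, with input as control for ChIP and the vehicle group as control for ATAC. The q-value of each entry in 19 lists is the one the authors deposited. The other 8 lists were read in the order of their entries. In 5 lists the authors deposited a fold, the ratio of sample to control. The positions are those of the deposited lists (other columns were not used), given 1-based. The 28147 (vehicle) and 7254 (GW4064) blank entries of the Foxa2-KO FXR lists were left out. Depth per sample is unknown.

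A gene counted for a ChIP list when a peak centre lay in its body or within 10 kb, and for an ATAC list when at least 25% of its body lay in regions. Gene positions, start sites and promoters came from RefSeq (GRCm38.p6). The same counts over 21887 protein-coding genes, and over the 7926 of at most 10 kb, are the background. With 1 list per group no test was made. Counting was tested on simulated peaks and regions, with 0 genes differing from direct counting. Named genes were those at or above 25% in an ATAC list, the 2 nearest the limit on either side, and up to 10 per antibody by number of lists and rank. In other gene lists up to 4 were named. Some genes that this rule names are not reported here. The members, lists and limits were chosen with earlier results of these data known. Any-base coverage, counts over several ATAC lists, start and far-end counts, the profile and the motif TGTTTAT were chosen after seeing the files. Alternatives were other windows, limits, ranks and folds, removal of 102 regions shared by all 4 antibodies, and canonical genes alone. Python 3.11.15, numpy 2.4.6 and pandas 2.3.3 were used.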

Additional observations from a re-analysis of the deposited data

How the results depend on the processing

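No ChIP count over the 89 genes moved by more than 1 gene when peaks were counted by any base or when the 102 shared regions were removed. With peak centres inside the body, the counts were 8 for Foxa2, 2 for FXR in WT, 0 for FXR in Foxa2-KO, 7 for LXR in WT, 2 for LXR in Foxa2-KO, 1 for PPAR in WT and 1 for PPAR in Foxa2-KO. With the first 500 entries of each list they were 0, 1, 0, 3, 0, 1 and 0 in the same order. Within 5 kb they were 36, 10, 0, 17, 6, 3 and 4, again in that order. Among canonical genes alone the single FXR gene in Foxa2-KO was also lost (0), and PPAR in WT went from 3 to 1. For ATAC, a limit of 10% gave 8 genes with GW3965, 19 with T09 and 13 with GW4064 in WT, and a limit of 50% gave 5 with T09, 2 with GW4064 in WT and 3 in Foxa2-KO. Bodies with 1 kb on either side gave 6 with GW3965. The first 500 regions gave 0 in each of the 4 lists. Regions of fold 1.5 or more gave 1 with GW3965, 2 with T09 and 2 in Foxa2-KO, and the WT GW4064 list, which has no fold, was not run. Except for the fold limit, shares over all genes at these settings are not given here. The counts therefore show only how far each setting moves them, not how the genes stand against others. Each alternative changes the peaks, bases, limit or genes counted, and no other cause was tested. No paired analysis was possible because each group is 1 pooled list, and for the same reason leaving out a replicate was not run.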
